A study of Homo sapiens with 21 samples.

Results

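The genes described here are the 36 that encode the signal recognition particle, its receptor, the translocation channel of the endoplasmic reticulum (ER) with its associated proteins, signal peptidase and the oligosaccharyltransferase. They were taken by name from the 28395 rows of the count table, whose Entrez identifiers were matched to current NCBI symbols, and all 36 were found. All 36 passed the filter on low counts, as did 16036 genes in all. RNA sequencing was done on Hs578T cells, a triple-negative breast cancer line of mesenchymal type labelled as wild type, 8 h after treatment, so that every value comes from a single cell line at a single time. Control cells received the vehicle DMSO. The other 6 groups received THZ531, a covalent inhibitor of the transcriptional kinases CDK12 and CDK13, at 0.1 μM or 1.0 μM, the EGFR and HER2 inhibitor lapatinib at 3.16 μM, the BCR-ABL inhibitor nilotinib at 1.0 μM, or 0.1 μM THZ531 combined with either kinase inhibitor at the same dose. Each group held 3 libraries, 21 in all. The libraries had 97612207 to 112229052 counts, and a member of the set had between 1163 and 108721 counts in each of them. The mesenchymal markers VIM, CAV1, AXL and CD44 stood at 1346 to 6845 CPM (counts relative to the scaled library total) in DMSO, while ESR1 and CDH1 stood at 0.364 and 0.205 CPM, ERBB2 stood at 37.5 CPM, and PGR and EPCAM did not pass the filter.

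Proteins bound for the ER membrane, for secretion or for the cell surface carry a hydrophobic signal that is recognized by the signal recognition particle while the protein is still being made. The particle, an RNA with bound proteins, docks the ribosome on its receptor in the ER membrane, and the growing chain then passes into or through the Sec61 channel. Signal peptidase removes the signal sequence, and the oligosaccharyltransferase transfers a preassembled sugar chain from the lipid dolichol to asparagine residues. These steps serve all cells, and cells that secrete matrix, as mesenchymal cells do, send many proteins through them.

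Levels were computed as CPM after scaling by the trimmed mean of M-values (TMM), which assumes that most genes keep their level, and fold changes were tested across all 16036 genes with edgeR's quasi-likelihood test and Benjamini-Hochberg adjustment. A gene is called higher or lower where its adjusted p was under 0.05. In the combinations and at 1.0 μM THZ531 most genes were called, and the scaling decides the sign of many small changes, so that directions below are those relative to the bulk of the transcriptome unless another scaling is named. As a second view, libraries were scaled to the 13 mitochondrial mRNAs, which are made by another polymerase. These took 1.19% to 1.35% of the counts in the DMSO libraries, 1.49% to 1.76% in the lapatinib combination, 1.45% to 1.68% in the nilotinib combination and 1.36% to 1.78% at 1.0 μM THZ531. With 0.1 μM THZ531, lapatinib and nilotinib alone they took 1.14% to 1.27%, 1.30% to 1.51% and 1.27% to 1.56%, and the ranges of lapatinib and nilotinib overlap those of the combinations. With that scaling the median log2 fold change (FC) of all tested genes moved from -0.01 in each of these 3 comparisons with DMSO to -0.69, -0.63 and -0.55, and with library size alone it moved to -0.34, -0.31 and -0.27. In the lapatinib combination 5500 genes were called higher and 6064 lower with TMM scaling, 3357 and 7763 with library size alone, and 850 and 9366 with scaling to mitochondrial mRNAs. In the nilotinib combination these counts were 5407 and 5974, 3285 and 7557, and 774 and 8959, and at 1.0 μM THZ531 they were 5301 and 5902, 3363 and 7319, and 697 and 8424. With scaling to mitochondrial mRNAs the all-gene median was 0.011, -0.15 and -0.18 in 0.1 μM THZ531, lapatinib and nilotinib alone. Which scaling is nearest to the RNA content of the cells was not tested.

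In DMSO-treated cells the 36 genes were abundant. Their median over all 21 libraries was 168 CPM, against 12.3 CPM for all tested genes, and together they took 0.896% ± 0.0418 (SD, n = 3) of the counts. Per kilobase of mRNA, DAD1, a small subunit of the oligosaccharyltransferase, was the highest at 302 ± 20.3 CPM per kb (SD, n = 3), followed by the translocon-associated protein SSR2 at 286 ± 16.4 and the oligosaccharyltransferase subunit RPN1 at 237 ± 12.9. DAD1 and SSR2 were within 1 SD of each other, and RPN1, the channel subunit SEC61A1 (230 ± 9.42) and TRAM1 (224 ± 35.6) could not be ordered beyond their spread either. The lowest were SEC11C at 13.5 ± 0.721, SRP19 at 11.9 ± 0.44 and SEC61A2 at 6.14 ± 0.266 CPM per kb. SEC61A2 and SEC11C are the minor copies of 2 paralog pairs, since SEC61A1 and SEC11A stood at 230 and 101 CPM per kb.

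No change of the set was detected in the single treatments. With 0.1 μM THZ531, lapatinib or nilotinib alone, 0 of the 36 genes were called by edgeR's quasi-likelihood test, and DESeq2 called 0 as well. Over all tested genes, 6.09%, 0.312% and 0.343% were called in these comparisons in either direction. At an unadjusted p under 0.05 there were 2 genes with 0.1 μM THZ531 (SRP19 and SRPRB, log2 FC 0.21 and 0.23), 4 with lapatinib (SEC61G, SSR1, TRAM1 and STT3B, 0.12 to 0.22) and 2 with nilotinib (SRP54 and SRPRA, -0.17 and -0.10). The median log2 FC of the members was 0.06, 0.08 and 0.03, against 0.01, -0.01 and 0.00 for all tested genes. For tested genes with a mean of at least 50 CPM it was 0.06, -0.01 and 0.01. The 95% intervals of the 36 log2 FCs reached from -0.46 to 0.46 with 0.1 μM THZ531, from -0.30 to 0.46 with lapatinib and from -0.34 to 0.50 with nilotinib.

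**Figure D1:**
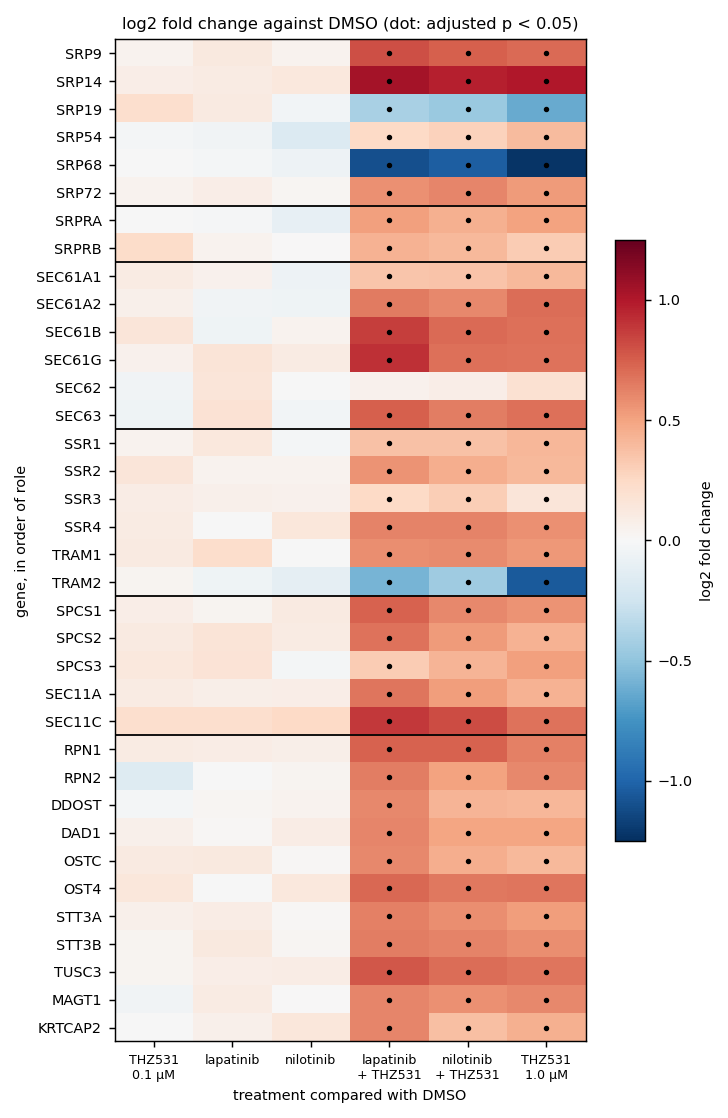
Log2 fold change against DMSO of each of the 36 genes (rows, in order of role and parted by lines: signal recognition particle, receptor, channel, associated proteins, signal peptidase, oligosaccharyltransferase) in 6 treatments (columns), with TMM scaling. Dots mark an adjusted p under 0.05; there are none in the 3 single-treatment columns at left, while SRP68, SRP19 and TRAM2 are blue and 32 genes red with a dot in each of the 3 columns at right, a colour that for most of the 32 depends on the scaling (with scaling to mitochondrial mRNAs only SRP14 of them was still called higher).

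Under the lapatinib combination, the nilotinib combination and 1.0 μM THZ531, the 36 genes split in the same way in each comparison with DMSO, which all share the same 3 control libraries. With TMM scaling 32 were called higher, SRP68, SRP19 and TRAM2 were called lower, and SEC62 was not called. With scaling to mitochondrial mRNAs SRP14 alone was called higher in each, and 9, 6 and 5 genes were called lower. In that scaling 850, 774 and 697 of the 16036 tested genes were called higher, and 9366, 8959 and 8424 lower. With TMM scaling 34.3%, 33.7% and 33.1% of all tested genes were called higher, and 37.8%, 37.3% and 36.8% were called lower. Among the 3914 tested genes with a mean of at least 50 CPM, a level that 33 of the 36 members reach, 56.6%, 57.9% and 55.9% were called higher, so that abundant genes as such were more often called higher than the whole table. For the members that share was 88.9% in each comparison. The member median log2 FC was 0.61, 0.53 and 0.52, against 0.34, 0.34 and 0.31 for the genes of at least 50 CPM. In each comparison 33 of the 36 genes lay above the median of all tested genes, a count that hardly depends on the scaling, since a scaling shifts all genes by about the same amount.

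The changes were small for most members. Beyond a log2 FC of 1 lay SRP14 in the lapatinib combination and at 1.0 μM THZ531, which makes 1, 0 and 1 of 36 genes, where 7.9%, 6.54% and 5.77% of all tested genes lay above 1. Below -1 lay SRP68 in all 3 comparisons and TRAM2 at 1.0 μM THZ531, which makes 1, 1 and 2 of 36, where 21.3%, 20.8% and 18.9% of all tested genes lay below -1. Such changes were rarer among abundant genes. Of the 3914 genes of at least 50 CPM, 99, 62 and 17 lay above 1, and 292, 266 and 257 lay below -1. For the 32 called higher, all 3 treated libraries lay above all 3 DMSO libraries, and for the 3 called lower all lay below, in each comparison. Of all tested genes 34.4% to 34.8% were placed above in this way and 37.8% to 38.6% below. The members' share of all counts, which scales by library size alone, was 1.01% ± 0.0367 in the lapatinib combination, 1.01% ± 0.0278 in the nilotinib combination and 1.01% ± 0.00524 at 1.0 μM THZ531 (SD, n = 3), above every DMSO library (0.849% to 0.929%). With 0.1 μM THZ531, lapatinib and nilotinib alone it was 0.915% ± 0.0261, 0.947% ± 0.0268 and 0.891% ± 0.025, and each of these groups overlapped DMSO. The share of the 6 channel-associated genes was 0.282% ± 0.0223 in DMSO and 0.282% ± 0.0158, 0.29% ± 0.00951 and 0.278% ± 0.00966 in the 3 strong treatments, which overlapped DMSO.

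**Figure D2:**
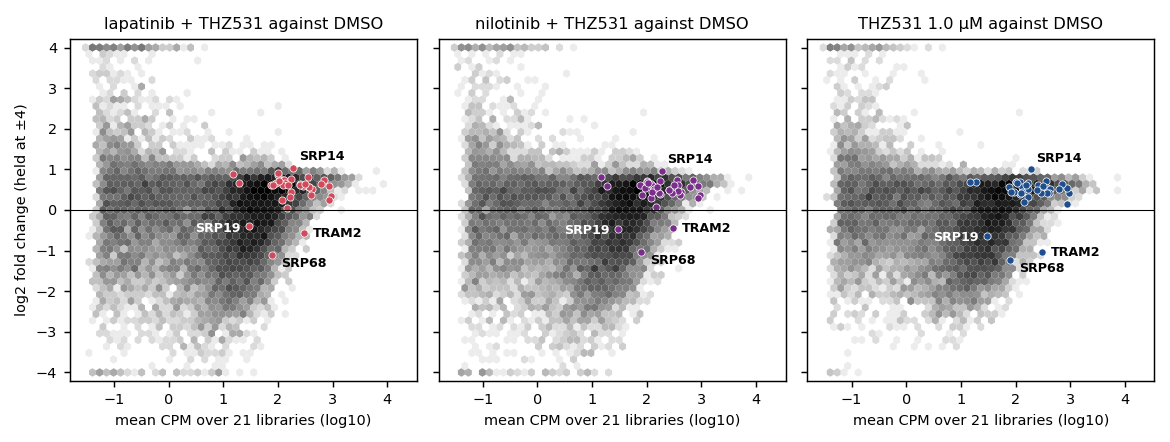
Log2 fold change against DMSO (vertical, held at ±4) by mean level over 21 libraries (horizontal, log10 CPM) for all 16036 tested genes (grey, darker where more genes fall) and the 36 members (coloured points), with TMM scaling. Most members sit in the dense band just above 0 where other abundant genes sit, and SRP68, SRP19 and TRAM2 lie below 0 in all 3 panels; with scaling to mitochondrial mRNAs the whole cloud shifts down by 0.69, 0.63 and 0.55 at its median.

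The signal recognition particle held the extremes of the set. Its proteins are SRP54, which binds the signal sequence, SRP19, which is needed to load SRP54 on the RNA, the SRP68 and SRP72 pair, which bind the RNA as a dimer, and the SRP9 and SRP14 pair, which slow elongation of the chain. Of the 6, 4 were called higher with TMM scaling and SRP68 and SRP19 were called lower. With scaling to mitochondrial mRNAs SRP14 stayed higher in all 3 comparisons, SRP68 and SRP19 stayed lower, and SRP54 was called lower in both combinations. Of all tested genes 34.3%, 33.7% and 33.1% were called higher with TMM scaling and 37.8%, 37.3% and 36.8% lower. At 50 CPM or more these shares were 56.6%, 57.9% and 55.9%, and 25.7%, 23.7% and 25.4%. SRP68 (NCBI gene 6730, chr17:76038785-76072517 on the minus strand, GRCh38.p14) fell the most of all 36. Its levels were 104, 104 and 104 CPM in DMSO, 49.7, 48.6 and 47 in the lapatinib combination, 52.3, 49.9 and 50.5 in the nilotinib combination, and 44.5, 39.6 and 49 at 1.0 μM THZ531. All 9 of these treated libraries lay below the 12 libraries of DMSO and the single treatments, which ranged from 96.2 to 105 CPM. The log2 FC was -1.10 (SE 0.06, adjusted p = 5.22e-12), -1.03 (SE 0.06, adjusted p = 1.52e-11) and -1.23 (SE 0.06, adjusted p = 2.01e-12). Its partner SRP72 was at 319, 287 and 303 CPM in DMSO and at 432 to 489 CPM over the 9 libraries, with log2 FCs of 0.58, 0.61 and 0.54 with TMM scaling, which were not called with scaling to mitochondrial mRNAs. The annotated span of SRP68 overlaps GALR2 and the counting was without strand, so that their reads may mix. Whether their exons overlap was not tested.

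The ratio of the counts of both partners within a library does not depend on any scaling. There were 0.325, 0.36 and 0.343 SRP68 counts for each SRP72 count in the DMSO libraries. In the lapatinib combination the ratio was 0.103, 0.113 and 0.107, in the nilotinib combination 0.107, 0.111 and 0.113, and at 1.0 μM THZ531 0.102, 0.0885 and 0.112. The log2 ratio differed from that in DMSO by -1.67, -1.63 and -1.77. With 0.1 μM THZ531, lapatinib and nilotinib alone it differed by -0.05, -0.11 and -0.09. The libraries of lapatinib alone (0.311, 0.321 and 0.319) lay below every DMSO library, and the other single treatments overlapped DMSO. The pair was set side by side after its levels were seen, so the ratio is a description with no test.

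SRP19 (chr5:112861287-112898371, plus strand) was at 34, 31.7 and 33.4 CPM in DMSO. It stood at 24.8, 25.6 and 24.6 in the lapatinib combination, at 25, 23.1 and 23.6 in the nilotinib combination, and at 20.9, 19.6 and 23.4 at 1.0 μM THZ531, all below DMSO. With 0.1 μM THZ531 alone its libraries (40.6, 38.3 and 35.6 CPM) lay above DMSO, a difference that was not called (adjusted p = 0.117). The log2 FCs in the 3 strong treatments were -0.40, -0.47 and -0.63 (SE 0.08 each, adjusted p = 9.04e-05, 1.76e-05 and 4.04e-07). Relative to SRP54, which it helps to load, SRP19 went from a within-library ratio of 0.298 ± 0.00521 in DMSO to 0.191 ± 0.0141, 0.176 ± 0.00464 and 0.146 ± 0.0135 (SD, n = 3; a pair also chosen after its levels were seen). With 0.1 μM THZ531, lapatinib and nilotinib alone the ratio was 0.351 ± 0.00483, 0.334 ± 0.00739 and 0.329 ± 0.0335, above every DMSO library in each. The annotated span of SRP19 overlaps REEP5, so that their reads may mix.

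SRP14 (chr15:40035690-40039202, minus strand) was the largest riser in all 3 comparisons, and it was called higher in each also with scaling to mitochondrial mRNAs (log2 FC 0.36, 0.35 and 0.46). It was at 128, 132 and 131 CPM in DMSO, at 283, 259 and 265 in the lapatinib combination, at 273, 250 and 243 in the nilotinib combination and at 250, 279 and 255 at 1.0 μM THZ531. The single-treatment libraries lay between 133 and 154 CPM, so that the 9 strongly treated libraries stood apart from the other 12. The annotated span of SRP14 overlaps LOC124903471, a long noncoding RNA gene, so that reads of both may mix. The TMM log2 FCs were 1.04, 0.97 and 1.00 (SE 0.06 each, adjusted p = 1.76e-11, 5.75e-11 and 5.00e-11). Its partner SRP9 was at 299, 239 and 281 CPM in DMSO, at 554, 427 and 447 in the lapatinib combination, at 478, 432 and 462 in the nilotinib combination and at 456, 428 and 453 at 1.0 μM THZ531, with TMM log2 FCs of 0.80, 0.74 and 0.71 that were not called with scaling to mitochondrial mRNAs.

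**Figure D3:**
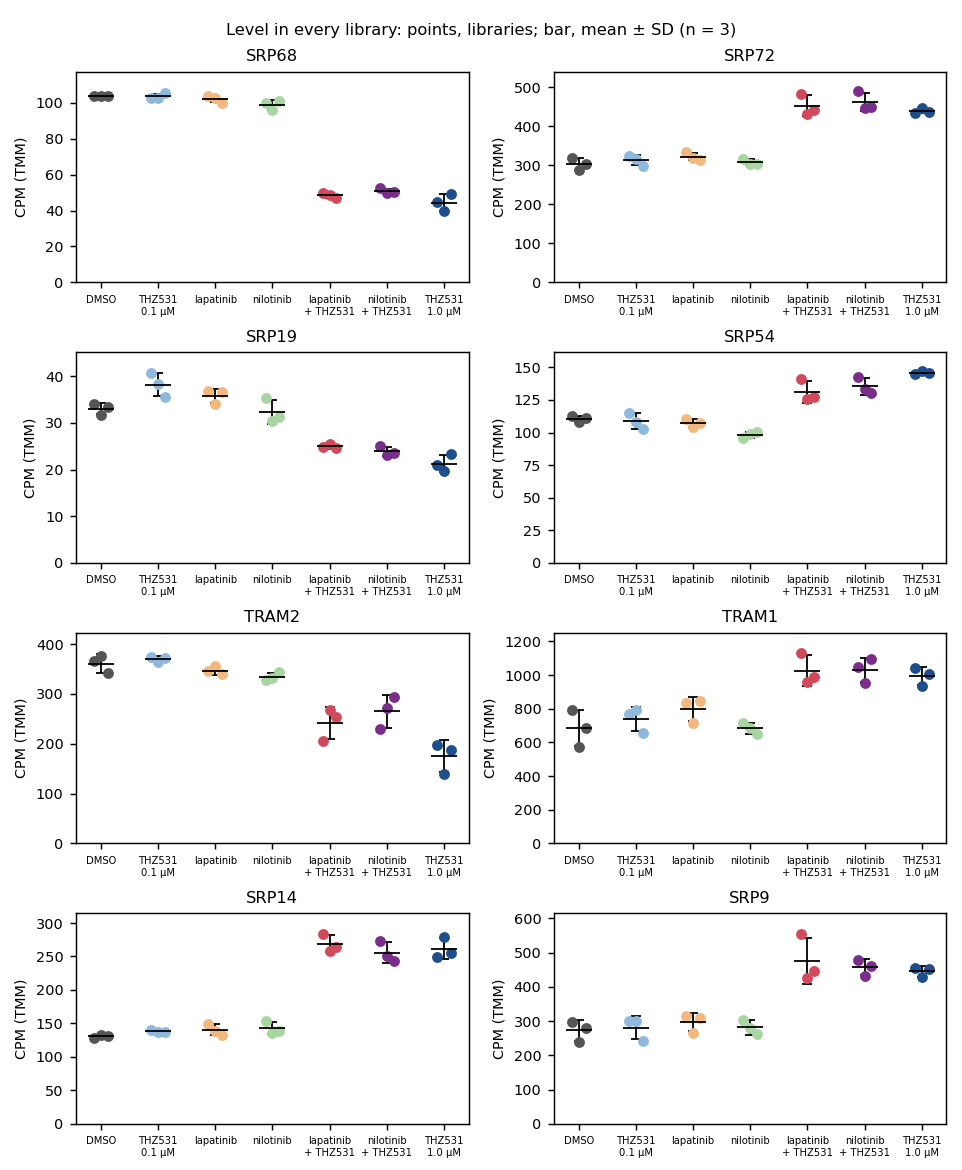
CPM in each of 21 libraries (points) with the group mean and SD (bars, n = 3) with TMM scaling for SRP68, SRP72, SRP19, SRP54, TRAM2, TRAM1, SRP14 and SRP9; each vertical axis starts at 0. SRP68, SRP19 and TRAM2 are lower in the 3 groups at right than in the 4 at left, and SRP72, SRP54, TRAM1, SRP9 and SRP14 are higher, of which SRP14 alone was also called higher with scaling to mitochondrial mRNAs.

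The windows around the start sites of the genes that moved against the rest are shown beside those of SRP72, the partner of SRP68, and SRP14, the gene with the largest rise (RefSeq, GRCh38.p14, 250 bases before to 50 after the start, on the strand of the gene). Capitals mark matches on either strand of TGACGTG, a form of the cyclic AMP response element that XBP1 and ATF6 also bind, of the CCAAT box, of CCGGAAG, which ETS factors bind, and of the NRF1 motif. None of these motifs contains another.
SRP68 (chr17:76072468-76072767): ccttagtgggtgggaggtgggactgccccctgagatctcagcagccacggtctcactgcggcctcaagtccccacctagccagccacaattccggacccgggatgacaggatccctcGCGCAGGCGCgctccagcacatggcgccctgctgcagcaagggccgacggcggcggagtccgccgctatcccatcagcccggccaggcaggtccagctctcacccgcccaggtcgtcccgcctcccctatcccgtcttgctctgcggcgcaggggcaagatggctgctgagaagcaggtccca
SRP72 (chr4:56467367-56467666): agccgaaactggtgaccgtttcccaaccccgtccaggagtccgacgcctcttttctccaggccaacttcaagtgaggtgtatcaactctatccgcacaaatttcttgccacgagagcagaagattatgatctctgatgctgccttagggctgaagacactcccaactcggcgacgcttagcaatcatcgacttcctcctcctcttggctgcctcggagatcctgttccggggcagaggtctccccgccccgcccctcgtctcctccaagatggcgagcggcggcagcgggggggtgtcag
SRP19 (chr5:112861037-112861336): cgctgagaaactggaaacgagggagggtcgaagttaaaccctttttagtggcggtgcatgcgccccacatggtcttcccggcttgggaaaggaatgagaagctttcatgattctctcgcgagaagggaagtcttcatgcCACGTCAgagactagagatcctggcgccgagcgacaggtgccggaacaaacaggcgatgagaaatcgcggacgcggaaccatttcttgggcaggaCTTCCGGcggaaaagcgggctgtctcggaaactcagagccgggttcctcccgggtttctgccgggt
TRAM2 (chr6:52577011-52577310): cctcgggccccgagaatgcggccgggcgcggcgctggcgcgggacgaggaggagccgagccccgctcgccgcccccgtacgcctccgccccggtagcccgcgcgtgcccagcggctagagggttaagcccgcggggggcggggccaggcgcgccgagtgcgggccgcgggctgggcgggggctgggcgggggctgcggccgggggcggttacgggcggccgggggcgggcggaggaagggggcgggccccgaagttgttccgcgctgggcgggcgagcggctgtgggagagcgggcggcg
SRP14 (chr15:40039153-40039452): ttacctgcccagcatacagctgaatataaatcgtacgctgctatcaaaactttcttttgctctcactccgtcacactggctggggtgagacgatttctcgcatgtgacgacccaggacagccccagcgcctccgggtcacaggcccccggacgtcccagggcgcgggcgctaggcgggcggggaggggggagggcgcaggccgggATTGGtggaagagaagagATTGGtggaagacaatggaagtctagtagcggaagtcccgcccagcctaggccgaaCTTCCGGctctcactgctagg

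The SRP68 window held the NRF1 motif from 133 bases before the start, the SRP19 window held TGACGTG from 111 and CCGGAAG from 16 bases before it, and the SRP14 window held CCAAT from 45 and 27 bases before the start and CCGGAAG from position 30 after it. Neither the SRP72 nor the TRAM2 window held a match, and the TRAM2 window was the richest of the 5 in G and C at 83.3%. Of the 36 genes, 30 had a window in the table. TGACGTG was in 5 of the 30 (16.7%: SRP19, SEC61A1, SEC62, SSR3 and SSR4), against 2.40% of all 27305 genes with a window and 3.23% of those that were tested. CCAAT was in 53.3% of the members' windows (39.7% of all, 42.8% of tested genes), CCGGAAG in 26.7% (12.2% and 20.3%), the NRF1 motif in 6 of 30 (6.98% of all, 12.2% of tested genes), and the ER stress response element in 0 of 30 (0.0916% of all genes). The matches are letters in a window and were not tested for a link with the changes in level.

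Both receptor subunits, SRPRA, which meets SRP54 on the membrane, and SRPRB, its membrane anchor, were called higher with TMM scaling, but neither was with scaling to mitochondrial mRNAs, where both log2 FCs were below 0 in each comparison. SRPRA was at 362, 370 and 366 CPM in DMSO. It was at 518, 499 and 543 in the lapatinib combination, at 516, 492 and 482 in the nilotinib combination and at 508, 533 and 517 at 1.0 μM THZ531, and the groups did not overlap. The TMM log2 FCs were 0.51, 0.44 and 0.51 for SRPRA and 0.44, 0.40 and 0.31 for SRPRB. The annotated spans of SRPRA and SRPRB overlap FAM118B and TF.

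Of the 6 genes of the channel, 5 were called higher with TMM scaling in each comparison (median log2 FC 0.70, 0.62 and 0.68), while with scaling to mitochondrial mRNAs 0 were called higher and 2, 1 and 1 were called lower. All tested genes were called higher in 34.3%, 33.7% and 33.1% with TMM scaling, and those of at least 50 CPM in 56.6%, 57.9% and 55.9%. The channel is formed by a SEC61A subunit with the small subunits SEC61B and SEC61G, and SEC62 and SEC63 serve chains that arrive after synthesis. SEC61G was at 74.7, 74.6 and 77.3 CPM in DMSO and at 155, 132 and 138 in the lapatinib combination, at 124, 126 and 117 in the nilotinib combination and at 117, 119 and 127 at 1.0 μM THZ531 (TMM log2 FC 0.91, 0.69 and 0.68). SEC61B was at 76.3, 74.4 and 78 CPM in DMSO, at 151, 125 and 141 in the lapatinib combination, at 135, 128 and 111 in the nilotinib combination and at 112, 130 and 127 at 1.0 μM THZ531 (0.87, 0.71 and 0.69). SEC63 followed with TMM log2 FCs of 0.74, 0.64 and 0.69. SEC62 was the only member not called with TMM scaling: it was at 149, 133 and 133 CPM in DMSO and between 132 and 174 in the 9 libraries, which overlap, and its log2 FC was 0.06, 0.09 and 0.19 (adjusted p = 0.571, 0.402 and 0.0676). With scaling to mitochondrial mRNAs SEC62 was called lower in all 3 (log2 FC -0.62, -0.54 and -0.37).

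The 2 copies of the large channel subunit moved unequally. SEC61A1 was at 826, 783 and 849 CPM in DMSO, and at 1077, 974 and 1080, 1120, 1032 and 998, and 1032, 1139 and 1090 CPM in the lapatinib combination, the nilotinib combination and 1.0 μM THZ531. SEC61A2 was at 15.6, 14.6 and 15.8 CPM in DMSO and at 27.1, 23.5 and 21.8, 25.5, 22.4 and 21.7, and 23.6, 24.1 and 26.7 CPM in the same 3 treatments. The SEC61A2 to SEC61A1 count ratio, free of scaling, was 0.0187 ± 0.00015 in DMSO and 0.0231 ± 0.00261, 0.0221 ± 0.000597 and 0.0229 ± 0.00168 in the 3 treatments (SD, n = 3), above every DMSO library. With lapatinib alone this ratio was 0.0175 ± 0.000571 (SD, n = 3), below every DMSO library, and with 0.1 μM THZ531 or nilotinib alone it overlapped DMSO. The spans of SEC61A1 and SEC61A2 overlap RUVBL1 and NUDT5, and of the other members those of SSR4, SPCS1, RPN2 and OST4 overlap another protein-coding gene and those of STT3A, DDOST and SPCS3 an antisense gene.

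Of the 6 channel-associated genes, the 4 subunits of the translocon-associated protein complex (SSR1 to SSR4) and TRAM1 were called higher with TMM scaling, and TRAM2 was called lower with every scaling. With scaling to mitochondrial mRNAs 0 were higher, SSR3 was lower in all 3 comparisons and SSR1 in the lapatinib combination. Among tested genes of at least 50 CPM, 56.6%, 57.9% and 55.9% were called higher with TMM scaling, and 34.3%, 33.7% and 33.1% of all tested genes. SSR2 and SSR4 had TMM log2 FCs of 0.56 and 0.62 in the lapatinib combination, and SSR1 and SSR3 had 0.37 and 0.25. TRAM1 and TRAM2 are paralogs of a membrane protein found beside the channel, and TRAM2 is also known from collagen synthesis. TRAM2 (chr6:52497408-52577060, minus strand) was at 365, 377 and 341 CPM in DMSO. It was at 205, 268 and 253 in the lapatinib combination, at 229, 271 and 294 in the nilotinib combination, and at 197, 138 and 188 at 1.0 μM THZ531, and it lay below DMSO in all 9 libraries. The log2 FC was -0.58 (SE 0.11, adjusted p = 0.000107), -0.45 (SE 0.11, adjusted p = 0.0013) and -1.05 (SE 0.11, adjusted p = 7.32e-08). TRAM1 went the other way with TMM scaling, from 792, 574 and 687 CPM in DMSO to 1130, 956 and 990, 1048, 950 and 1094, and 1039, 934 and 1008 CPM (log2 FC 0.58, 0.59 and 0.54). The TRAM2 to TRAM1 count ratio was 0.461, 0.656 and 0.496 in the DMSO libraries, a wide spread, and 0.182 to 0.28, 0.218 to 0.285 and 0.148 to 0.19 in the 3 treatments, so that the groups did not overlap (log2 ratio difference -1.18, -1.05 and -1.61).

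**Figure D4:**
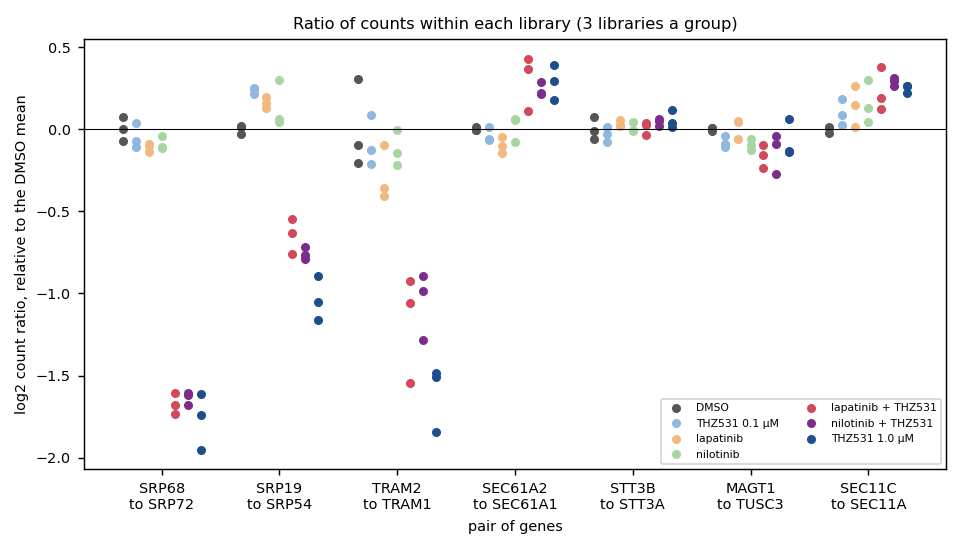
Log2 ratio of the counts of 2 genes within each library, relative to the DMSO mean (vertical), for 7 pairs of partners or paralogs (horizontal), with 3 libraries a group as points in the colour of the group. The SRP68 to SRP72, SRP19 to SRP54 and TRAM2 to TRAM1 ratios are lower in the combinations and at 1.0 μM THZ531 than in the other 4 groups, while STT3B to STT3A overlaps DMSO in every group.

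All 5 genes of signal peptidase were called higher with TMM scaling (median log2 FC 0.67, 0.54 and 0.52), whereas with scaling to mitochondrial mRNAs 0 were called higher and SPCS3 was called lower in the lapatinib combination. The TMM shares called higher were 34.3%, 33.7% and 33.1% of all tested genes, and 56.6%, 57.9% and 55.9% of those of at least 50 CPM. SEC11A and SEC11C are alternative catalytic subunits and SPCS1, SPCS2 and SPCS3 are accessory subunits. SPCS1 and SPCS2 had TMM log2 FCs of 0.74 and 0.67 in the lapatinib combination and SPCS3 had 0.31. SEC11C, the minor one in these cells, was at 10.8, 10.1 and 11.2 CPM in DMSO, at 21.1, 19.3 and 18.7 in the lapatinib combination, at 21, 18.8 and 16.5 in the nilotinib combination and at 15.2, 17.9 and 18.2 at 1.0 μM THZ531 (TMM log2 FC 0.89, 0.82 and 0.68). SEC11A was at 111, 101 and 113 CPM in DMSO, at 198, 151 and 168 in the lapatinib combination, at 175, 155 and 140 in the nilotinib combination and at 133, 152 and 155 at 1.0 μM THZ531 (0.66, 0.53 and 0.43). The SEC11C to SEC11A count ratio was 0.0982 ± 0.00134 in DMSO and 0.115 ± 0.011, 0.12 ± 0.0019 and 0.117 ± 0.00196 (SD, n = 3), above DMSO in all 9 libraries; it was also above DMSO with nilotinib or 0.1 μM THZ531 alone (0.11 ± 0.01 and 0.105 ± 0.00596, SD, n = 3).

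All 11 genes of the oligosaccharyltransferase were called higher with TMM scaling in each comparison (median log2 FC 0.63, 0.57 and 0.58), and 0 of 11 were called in either direction with scaling to mitochondrial mRNAs. Their log2 FCs lay close together, from 0.60 to 0.77 in the lapatinib combination, 0.38 to 0.74 in the nilotinib combination and 0.41 to 0.67 at 1.0 μM THZ531. With TMM scaling 34.3%, 33.7% and 33.1% of all tested genes were called higher, and 56.6%, 57.9% and 55.9% of those of at least 50 CPM. The enzyme exists in a form with the catalytic subunit STT3A, which sits on the channel and works as the chain enters, and a form with STT3B, which holds TUSC3 or MAGT1 and reaches sites that were missed. STT3A was at 492, 482 and 512 CPM in DMSO, at 774, 724 and 800 in the lapatinib combination, at 772, 728 and 717 in the nilotinib combination and at 700, 724 and 714 at 1.0 μM THZ531. STT3B was at 263, 235 and 259 CPM in DMSO, and at 401, 378 and 397, 411, 376 and 379, and 387, 373 and 373 CPM in the same 3 treatments. Their TMM log2 FCs were 0.63, 0.58 and 0.53 for STT3A and 0.64, 0.62 and 0.58 for STT3B, and the STT3B to STT3A count ratio of 0.51 ± 0.0238 in DMSO overlapped that in every other group (0.498 to 0.53 as group means).

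TUSC3, one of the oxidoreductase subunits of the STT3B form, had the smallest error of all 36 in the lapatinib combination (SE 0.05). It was at 134, 130 and 133 CPM in DMSO, at 222, 231 and 225 in the lapatinib combination, at 214, 214 and 218 in the nilotinib combination and at 216, 205 and 209 at 1.0 μM THZ531 (TMM log2 FC 0.77, 0.70 and 0.67, adjusted p = 8.35e-12, 3.98e-11 and 1.17e-10). The gene spans 434904 bp, the longest of the 36. Its alternative MAGT1 was at 128, 124 and 126 CPM in DMSO, at 179, 207 and 193 in the lapatinib combination, at 169, 192 and 201 in the nilotinib combination and at 216, 177 and 182 at 1.0 μM THZ531 (0.61, 0.57 and 0.60). The MAGT1 to TUSC3 count ratio was 0.954 ± 0.00567 in DMSO and 0.853 ± 0.0415 and 0.87 ± 0.0719 in the combinations, below every DMSO library, while at 1.0 μM THZ531 (0.911 ± 0.074) the libraries overlapped. It was also below every DMSO library with 0.1 μM THZ531 or nilotinib alone (0.902 ± 0.022 and 0.893 ± 0.0198, SD, n = 3). With lapatinib alone (0.962 ± 0.0396) it overlapped DMSO. RPN1, a large subunit of both forms, was at 562, 508 and 557 CPM in DMSO, at 933, 863 and 911 in the lapatinib combination, at 951, 878 and 881 in the nilotinib combination and at 822, 842 and 854 at 1.0 μM THZ531 (TMM log2 FC 0.74, 0.74 and 0.63). RPN2 had the largest error of the set in the same comparison (SE 0.14), with 255, 391 and 343 CPM in the lapatinib combination against 196, 240 and 198 CPM in DMSO. OST4, a small subunit of both forms, had TMM log2 FCs of 0.72, 0.66 and 0.67. DDOST, DAD1, OSTC and KRTCAP2, the remaining subunits, lay between 0.60 and 0.62 in the lapatinib combination, 0.38 and 0.49 in the nilotinib combination, and 0.41 and 0.49 at 1.0 μM THZ531.

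**Figure D5:**
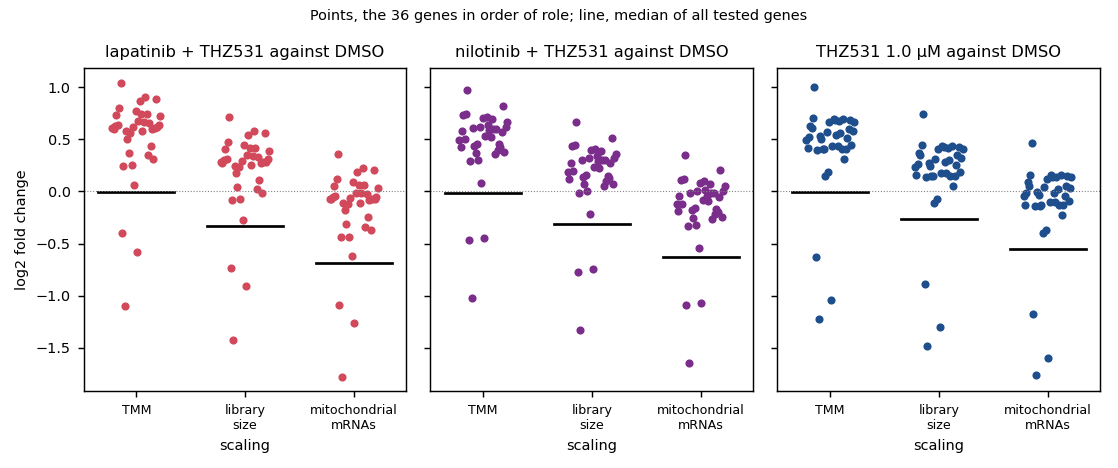
Log2 fold change against DMSO of the 36 genes (points, in order of role within each column) with TMM scaling, library size alone and scaling to mitochondrial mRNAs (columns), in the 3 strong treatments (panels), with the median of all tested genes as a black line. A scaling shifts points and line together, so that 33 of the 36 lie above the line in each column by construction once they do in one, while the sign of most points depends on the scaling.

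The dose of THZ531 and the addition of a kinase inhibitor were compared next. At 1.0 μM against 0.1 μM THZ531, 31 of the 36 genes were called higher with TMM scaling and SRP68, SRP19 and TRAM2 were called lower (34.3% and 35.9% of all tested genes), while with scaling to mitochondrial mRNAs 1 was higher and 6 were lower, where 758 and 8133 of the 16036 tested genes were. The log2 FC was -1.22 for SRP68, -0.84 for SRP19, 0.92 for SRP14 and 0.64 for TUSC3. The effect of 0.1 μM THZ531 in cells given a kinase inhibitor was then set against its effect without one, as an interaction term. With lapatinib this term was above 0 and called in 27 genes and below 0 in SRP68, SRP19 and TRAM2, where 28.2% and 32.0% of all tested genes were called. With nilotinib it was called above 0 in 24 genes and below 0 in SRP68 and SRP19, where 25.6% and 31.2% were called. Among the genes with a mean of at least 50 CPM, 49.2% were called above 0 with lapatinib and 47.8% with nilotinib. With scaling to mitochondrial mRNAs 0 members were called above 0 in either term, and 6 and 3 were called below. All tested genes had 594 and 593 called above and 7112 and 6425 called below. The term was -1.07 (SE 0.09, adjusted p = 3.12e-09) for SRP68 with lapatinib and -0.96 (SE 0.09, adjusted p = 1.73e-08) with nilotinib. With 0.1 μM THZ531 alone SRP68 was at 103, 103 and 105 CPM, SRP14 at 141, 137 and 137, and TUSC3 at 136, 137 and 132. These levels lie near those of DMSO and far from those of the combinations. All 11 oligosaccharyltransferase genes had a called term above 0 with lapatinib and 8 of 11 with nilotinib with TMM scaling, and 0 with scaling to mitochondrial mRNAs.

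The combinations were also set against 1.0 μM THZ531. The doses of THZ531 in this comparison differ by design, since the combinations hold 0.1 μM. Against 1.0 μM THZ531, TRAM2, SEC61G and SRP19 were called higher in the lapatinib combination (log2 FC 0.47, 0.23 and 0.23, adjusted p = 0.00297, 0.00675 and 0.0285), and TRAM2 and SRP68 in the nilotinib combination (0.60 and 0.20, adjusted p = 0.000439 and 0.0242). That is 3 and 2 of 36, where 12.8% and 11.2% of all tested genes were called higher, and 0 of 36 were called lower, where 16.1% and 13.0% were. These counts depended on single libraries: without replicate 2 of the lapatinib combination 5 were higher, without its replicate 1 or replicate 1 of the nilotinib combination 1 was lower, and in the nilotinib comparison 1 was left without its replicate 1 or 3 or without replicate 2 of 1.0 μM THZ531. SRP19 lost its call when replicate 2 or 3 of the lapatinib combination or replicate 1 or 2 of 1.0 μM THZ531 was left out, and SRP68 when any of the 3 libraries just named for the nilotinib comparison was. The TRAM2 calls held whichever library was left out, but in the lapatinib combination the call was lost when only the 2 groups compared entered the fit (adjusted p = 0.0545) and with scaling to mitochondrial mRNAs (adjusted p = 0.077).

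Between the combinations 0 of 36 genes were called by edgeR, with 3 at an unadjusted p under 0.05 (SEC61G, DDOST and KRTCAP2, log2 FC 0.22, 0.18 and 0.24 for the lapatinib over the nilotinib combination) and 1 called by DESeq2. Of all tested genes 1.47% were called. The 36 log2 differences ranged from -0.13 to 0.24, and their 95% intervals reached from -0.36 to 0.44. Against 1.0 μM THZ531 the intervals reached from -0.38 to 0.70 for the lapatinib and from -0.40 to 0.83 for the nilotinib combination.

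The RNA of the particle and the genes of neighbouring steps were taken from lists chosen by function. In the single treatments 1 gene of targeting and insertion was called lower with 0.1 μM THZ531 and 1 of glucose trimming higher with lapatinib, and 0 of the others were called by edgeR. The RNA of the particle is encoded by RN7SL1 and RN7SL2, near-identical copies made by another polymerase that share reads and are poorly captured by poly(A) selection, and 2 of the 3 genes listed passed the filter. RN7SL1 was at 6.3 ± 1.2 CPM in DMSO and 11.8 ± 1.55 in the lapatinib combination (SD, n = 3). Both copies were called higher with TMM scaling (log2 FC 0.90, 1.11 and 1.02 for RN7SL1 and 0.72, 0.80 and 0.65 for RN7SL2), and in the lapatinib combination neither was called with scaling to mitochondrial mRNAs.

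The enzymes that build the sugar donor on dolichol had called shares near those of the whole table. Of 24 genes, 11, 10 and 9 were called higher and 9, 9 and 10 lower with TMM scaling in the lapatinib combination, the nilotinib combination and 1.0 μM THZ531, with medians of 0.04, -0.03 and -0.01. That is 45.8%, 41.7% and 37.5% higher and 37.5%, 37.5% and 41.7% lower, beside 34.3%, 33.7% and 33.1% higher and 37.8%, 37.3% and 36.8% lower of all tested genes. DOLK, the dolichol kinase, was at 22.5, 21.5 and 23.5 CPM in DMSO and at 3.95, 4.86 and 3.96 in the lapatinib combination, a log2 FC of -2.40 (SE 0.13, adjusted p = 2.07e-12). DOLPP1, which recycles dolichol pyrophosphate, fell by 1.89 on the log2 scale (28.6 ± 0.519 to 7.69 ± 0.648 CPM, SD, n = 3). Both were also lower in the nilotinib combination (-2.60 and -1.95) and at 1.0 μM THZ531 (-2.57 and -1.30). The largest rises were in DPM3, a subunit of dolichol-phosphate mannose synthase, and DPAGT1, which adds the initial sugar (TMM log2 FC 0.87 and 0.66), of which DPAGT1 changed sign with scaling to mitochondrial mRNAs (-0.030) and DPM3 was no longer called.

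Of 22 genes of other routes of targeting and insertion, 13, 11 and 11 were called higher and 2, 4 and 4 lower with TMM scaling, which is 59.1%, 50.0% and 50.0% higher and 9.09%, 18.2% and 18.2% lower beside the same shares of all tested genes. EMC2, a subunit of the ER membrane complex, and SGTA, which hands tail-anchored proteins on in the cytosol, were lower in the lapatinib combination (log2 FC -0.80 and -0.55), and BAG6, which works with SGTA in the cytosol, and WDR83OS, a partner of the channel in multipass insertion, were higher with TMM scaling (1.32 and 0.89), the second of which was not called with scaling to mitochondrial mRNAs. BAG6 was counted at only 1.17 ± 0.233 CPM in DMSO (SD, n = 3) and was not called in the other 2 comparisons. NOMO1 shares reads with near-identical paralogs. Of the 7 genes of glucose trimming and the lectin cycle, 5, 5 and 6 were called higher with TMM scaling (71.4%, 71.4% and 85.7%) and MOGS, the glucosidase that makes the initial cut, was lower in each (-0.86, -0.90 and -0.65). All tested genes had 34.3%, 33.7% and 33.1% called higher, and those of at least 50 CPM had 56.6%, 57.9% and 55.9%. CALR and CANX, the lectin chaperones, had TMM log2 FCs of 0.70 and 0.61 in the lapatinib combination, where CANX changed sign with scaling to mitochondrial mRNAs (-0.074) and CALR was no longer called.

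The length of the gene is a property that the choice of genes did not use. The median span was 31087 bp for the members and 27777 bp for all tested genes with a known length. Across the 36 genes Spearman's rho of log2 FC with length was -0.26, -0.21 and -0.16 in the 3 strong treatments, and across all tested genes it was -0.19, -0.15 and -0.16. Across tested protein-coding genes it was -0.15, -0.10 and -0.11. With 0.1 μM THZ531, lapatinib and nilotinib alone, where 0 members were called, the members' rho was -0.37, 0.02 and -0.58. Across all tested genes it was then -0.06, 0.09 and -0.07. Genes in a library share its depth and composition and are not independent, so these are descriptions. SRP68, SRP19 and TRAM2 span 33733, 37085 and 79653 bp, all above the member median, while TUSC3 and STT3B, with 434904 and 104692 bp, were called higher with TMM scaling.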

How the data were processed

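RNA of Hs578T cells was sequenced from unstranded, poly(A)-selected libraries on a DNBSEQ-G400 instrument. Per the labels and the methods of the study, the authors aligned reads to GRCh38 with HISAT2 2.1.0 and counted them per gene with featureCounts; the deposited values are raw counts, not normalized. Counts for 27745 of 28395 genes were matched to NCBI symbols (99.98% of all counts). Whether 1 count is a read pair or a single end is not given in the sources used here; 61.6% to 66.4% of low counts were even. The study describes the libraries as coming from 3 independent experiments; the labels do not say so, and whether a replicate number marks an experiment is not given. Libraries of a group differed beyond counting noise (chi-square per degree of freedom 7.75 to 144). The depth of 97612207 to 112229052 counts left members far above the floor of detection.

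Counts were filtered (filterByExpr), scaled by TMM and fitted with edgeR 4.0.16 in R 4.3.3 as 7 group means over all 21 libraries, with a quasi-likelihood test per comparison and Benjamini-Hochberg adjustment over 16036 genes. Alternatives were DESeq2 1.42.0 (test and size factors), library size alone, mitochondrial mRNAs, no filter, a minimum of 10 counts in every library, a replicate block, the compared groups alone, halved counts, and each library left out. Values in every library are given for the 4 largest falls and rises in each strong treatment, up to 4 members with the smallest adjusted p in other comparisons and the 5 paralog pairs; of each related list, the 2 largest falls and rises. The members and lists were chosen with earlier results of these data known, and the level limit of 50 CPM and the partner ratios after seeing them. Within-library ratios are descriptions with no test. Protein sequences were not used here.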

Additional observations from a re-analysis of the deposited data

Results flagged for a closer look

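The effect of 0.1 μM THZ531 on these genes differed between cells with and without a kinase inhibitor by the interaction term of the edgeR fit. With lapatinib the term was called above 0 in 27 members and below 0 in 3, and with nilotinib above 0 in 24 and below 0 in 2, with TMM scaling. Of all tested genes 28.2% and 32.0% were called above and below 0 with lapatinib, and 25.6% and 31.2% with nilotinib. Among those with a mean of at least 50 CPM these shares were 49.2% and 22.6%, and 47.8% and 20.8%. The members with the smallest adjusted p with lapatinib were SRP68 (-1.07), TUSC3 (0.65), SRP14 (0.86) and SEC61G (0.69). With nilotinib they were SRP68 (-0.96), TUSC3 (0.58), SRP14 (0.75) and SRPRA (0.55). With scaling to mitochondrial mRNAs SRP68 was still called in both, and the terms of the other members named here kept their sign and were no longer called.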

How the results depend on the processing

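The counts of members called in the combinations and at 1.0 μM THZ531 depended mainly on the scaling. With scaling to mitochondrial mRNAs, higher and lower members numbered 1 and 9 in the lapatinib combination, 1 and 6 in the nilotinib combination, 1 and 5 at 1.0 μM THZ531, and 1 and 6 for 1.0 against 0.1 μM. Of the 16036 tested genes, 850 and 9366, 774 and 8959, 697 and 8424, and 758 and 8133 were higher and lower there. In the same setting 0 members were called above 0 and 6 below for the lapatinib interaction. For the nilotinib interaction 0 were called above. All tested genes had 594 called above and 7112 below for the first, and 593 called above for the second. Against 1.0 μM THZ531, 0 members were higher in the lapatinib combination and 1 in the nilotinib combination, beside 955 and 859 of all tested genes. The member medians became -0.071, -0.088 and -0.026. Of the genes named by rule in the lapatinib combination, TRAM1 (-0.11), SEC61A2 (-0.024), SEC61A1 (-0.34), STT3B (-0.053), STT3A (-0.058), MAGT1 (-0.072), SEC11A (-0.019), DPAGT1 (-0.030) and CANX (-0.074) changed sign. Other members also changed sign there, among them SRP72 (-0.11) and SSR2 (-0.12). With that scaling 3 of the 11 oligosaccharyltransferase genes stayed above 0 there. By construction this setting takes the mitochondrial mRNAs as constant, which was not tested. With library size alone 19 were higher in the nilotinib combination, and 12 and 13 had an interaction called above 0. Against 1.0 μM THZ531, 2 were then lower in the lapatinib and 1 higher in the nilotinib combination. The member medians with library size alone were 0.29, 0.23 and 0.26 in the 3 comparisons with DMSO.

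The small counts against 1.0 μM THZ531 moved with most settings. For the lapatinib combination 5 were higher with DESeq2 size factors, 6 with the DESeq2 test and 0 with only the groups compared, and 1 was lower with a minimum of 10 counts in every library, with the replicate block and with halved counts. In the nilotinib comparison 1 was higher without a filter and with only the groups compared. DESeq2 called 1 member higher in the lapatinib over the nilotinib combination. Leaving out 1 library at a time gave 2 to 5 higher and 0 to 1 lower for the lapatinib and 1 to 3 higher for the nilotinib combination against 1.0 μM THZ531; the cause was not tested. It gave 32 to 32 higher in both combinations and 30 to 33 at 1.0 μM THZ531 against DMSO, with 3 lower throughout.

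Same-numbered replicates correlated at 0.15 on average against -0.07 for different numbers, but 36 of 63 correlations were over 0.1 (from -0.83 to 0.89, and 8 of 21 libraries closest to their own number), short of every pair, so the numbers are not taken to pair samples. Replicate 1 had the highest share of counts in the 36 genes in 6 of 7 groups. With the replicate block 32 were higher and 3 lower in each comparison with DMSO of a combination or 1.0 μM THZ531. In that setting 28 and 27 interactions were called above 0, and 4 and 3 members were higher in the combinations against 1.0 μM THZ531. Over all settings, 687 counts of members stayed within 1.5 times the value reported and 33 did not. The 687 include counts of 0 that stayed 0, as in the single treatments, and the fits with 1 library left out. They are therefore a weak measure of how far the counts depend on the settings. Of the log2 FCs of named genes 1718 kept their sign and call, 43 kept the sign only and 9 changed sign. Each member had at least 1163 counts in every library. Counting error was not set against the spread between libraries gene by gene. That spread was very small for some members, as for SRP68 in DMSO (103.7 ± 0.174 CPM, SD, n = 3).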
